A study of Mus musculus with 115 samples.

Results

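The genes of the major histocompatibility complex (MHC) class II pathway were followed across the mammary fat pads of 115 mice. They were chosen by name: H2-Ea, H2-Eb1, H2-Aa and H2-Ab1, which encode the chains of the class II molecules, Cd74, Ciita, H2-DMa, H2-DMb1, H2-Ob and H2-Oa. Of these 10 genes, 9 had a probe set of their own among 18772 measured genes. The probe set of H2-DMb1 is shared with H2-DMb2, so H2-DMb1 has no value here.

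Each mouse was an untreated female aged 8 weeks, and 1 Affymetrix array was run per mouse on total RNA of the fat pad. The labels give all mice 1 genetic background: hybrids of FVB/N and Spret/Ei (Mus spretus) mated back to FVB/N, so that each autosomal locus is either homozygous for FVB/N or has 1 copy from Mus spretus. They sort the mice into lymph cluster 3 (10 mice), lymph cluster 2 (61 mice) and lymph cluster 1 (44 mice), without saying how the clusters were made, and onto array plate 2 (22 arrays) and array plate 1 (93 arrays). The title of the series names Hipk2, a nuclear kinase, in white fat development.

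Class II molecules display peptides from proteins taken up by a cell to CD4 T cells, and are made mainly by B cells, dendritic cells and activated macrophages. An alpha and a beta chain pair as H2-A (H2-Aa with H2-Ab1) or H2-E (H2-Ea with H2-Eb1). Cd74 is the invariant chain that guards the empty groove, H2-DM exchanges its remnant for peptide, H2-DO (H2-Oa with H2-Ob) restrains H2-DM, mostly in B cells, and Ciita is the coactivator that switches the genes on. From other work and not from these data, several laboratory haplotypes, that of FVB/N among them, make no H2-E molecule because H2-Ea is defective. In the RefSeq gene table H2-Ea is listed as a transcribed pseudogene.

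Class II promoters are known for an X box and a Y box that lie in fixed order a short way before the start of the gene. Entries of RefSeq's promoter table (GRCm38.p6, 250 bases before to 50 after the start) are reported for 5 of the 9 measured genes. Promoters of the other measured genes, Cd74 among them, are not reported here. The 6 entries reported belong to H2-Oa, H2-Ob, H2-Aa, H2-Eb1 and H2-DMa. The 150 bases before the start are printed for the 4 of these genes that hold both cores. Those genes share a layout, although the SD of their values over the mice ran from 0.356 (H2-Aa) to 0.999 (H2-Eb1). Capitals mark GCAAC, a core of the X box, and TGATTGG, a core of the Y box.
H2-Oa (chr17:34092229-34092378, plus strand): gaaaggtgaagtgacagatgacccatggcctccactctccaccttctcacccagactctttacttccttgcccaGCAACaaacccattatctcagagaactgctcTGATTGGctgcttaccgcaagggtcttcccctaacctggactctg
H2-Ob (chr17:34238755-34238904, plus strand): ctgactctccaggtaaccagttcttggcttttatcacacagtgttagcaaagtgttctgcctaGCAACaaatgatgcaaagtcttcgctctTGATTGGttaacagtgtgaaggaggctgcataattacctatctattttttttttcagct
H2-Aa (chr17:34287824-34287973, minus strand): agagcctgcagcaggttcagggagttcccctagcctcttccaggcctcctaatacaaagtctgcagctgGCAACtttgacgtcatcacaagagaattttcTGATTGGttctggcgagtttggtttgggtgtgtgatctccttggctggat
H2-Eb1 (chr17:34305717-34305866, plus strand): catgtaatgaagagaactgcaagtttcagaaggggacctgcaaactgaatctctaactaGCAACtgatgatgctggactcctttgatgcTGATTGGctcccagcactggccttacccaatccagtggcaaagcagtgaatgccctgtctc

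Between the X and Y cores lie 26 bases in H2-Oa, 23 in H2-Ob, 26 in H2-Aa and 25 in H2-Eb1. Neither H2-DMa entry holds TGATTGG on either strand. Over 32851 promoters of 300 bases, TGATTGG was found on either strand in 7.82%, GCAAC in 35.2%, and GCAAC followed by TGATTGG within 40 bases on 1 strand in 0.353%. The motifs do not overlap and were chosen after the sequences were read, and a match is a description of letters only.

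Values are deposited log2 RMA values. Among the chain genes, the H2-A pair did not meet the definition of separated levels given below. H2-Aa, the alpha chain of H2-A, had values from 9.53 to 11.37 with a median of 10.75 and an SD of 0.356 over the 115 mice. H2-Ab1, its beta chain, ran from 8.999 to 11.34 with a median of 10.46 and an SD of 0.400. Both SDs lay above that of the median probe set, 0.238.

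H2-Ea, the alpha chain gene, ran from 6.73 to 11.92 with a median of 9.24 and an SD of 1.452, at the 99.8th percentile of all probe sets. H2-Eb1, the beta chain gene, ran from 6.54 to 10.001 with a median of 7.67 and an SD of 0.999, at the 99.0th percentile.

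Of the genes that serve the chains, Cd74 ran from 9.497 to 11.49 (median 10.78, SD 0.351) and H2-DMa, the alpha chain of H2-DM, from 6.67 to 8.96 (median 7.76, SD 0.374). Ciita, the coactivator, ran from 6.28 to 8.64 (median 7.21, SD 0.494). The H2-DO chains spread more widely, with H2-Ob at 6.70 to 9.87 (median 8.08, SD 0.630) and H2-Oa at 6.41 to 8.73 (median 7.46, SD 0.506). The 2 mice lowest in Cd74, both in cluster 1, had 9.497 and 9.535 for Cd74, 9.533 and 9.657 for H2-Aa, and 9.249 and 8.999 for H2-Ab1.

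H2-Ea and H2-Eb1 each split the mice into an upper and a lower level. A mixture of 2 levels, fitted to values corrected for cluster and plate, was called separated where it gained 10 or more in the Bayesian information criterion (BIC), its levels stood 4 or more within-level SDs apart, and the smaller level held 20% or more of the mice. This description, which carries no p, held for H2-Ea and H2-Eb1 and for 0.308% of all probe sets (87 of 28204), and for none of the other 7 class II genes. H2-Aa fell short of each limit, with a BIC gain of 6.37, levels 2.92 within-level SDs apart and 19.1% of mice in the smaller level.

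For H2-Ea, the upper level held 54 mice with values from 9.85 to 11.92 (median 11.11), and the lower level 61 mice with values from 6.73 to 9.90 (median 8.39). The levels were 2.68 apart on the log2 scale, or 4.92 within-level SDs. As deposited, no mouse had an H2-Ea value between 9.48 and 9.85. The levels were set on corrected values, so 1 mouse on the lower side, at 9.90, lies just above the lowest value of the upper side.

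For H2-Eb1, the upper level held 50 mice with values from 8.30 to 10.001 (median 9.13), and the lower level 65 mice with values from 6.54 to 8.21 (median 7.30). These levels were 1.84 apart, or 4.66 within-level SDs. Both levels of both genes occurred in each cluster and on each plate: the upper H2-Ea level held 6 of 10 mice in cluster 3, 31 of 61 in cluster 2 and 17 of 44 in cluster 1.

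The same mice stood high in both genes. In 50 mice both were at the upper level and in 61 both were at the lower level, and 4 mice had H2-Ea at the upper with H2-Eb1 at the lower level. No mouse had the reverse. In those 4 mice H2-Ea was 9.85, 10.1, 10.5 and 10.7, H2-Eb1 was 7.99, 7.93, 8.21 and 8.09, and Cd74 was 10.2, 10.4, 9.93 and 10.2, below its median over all mice. They came from clusters 3, 2 and 1 and from both plates.

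No genotypes were used, and a difference in transcript amount cannot be told apart from a difference in how the probes match the FVB/N and Mus spretus sequences.

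**Figure D1:**
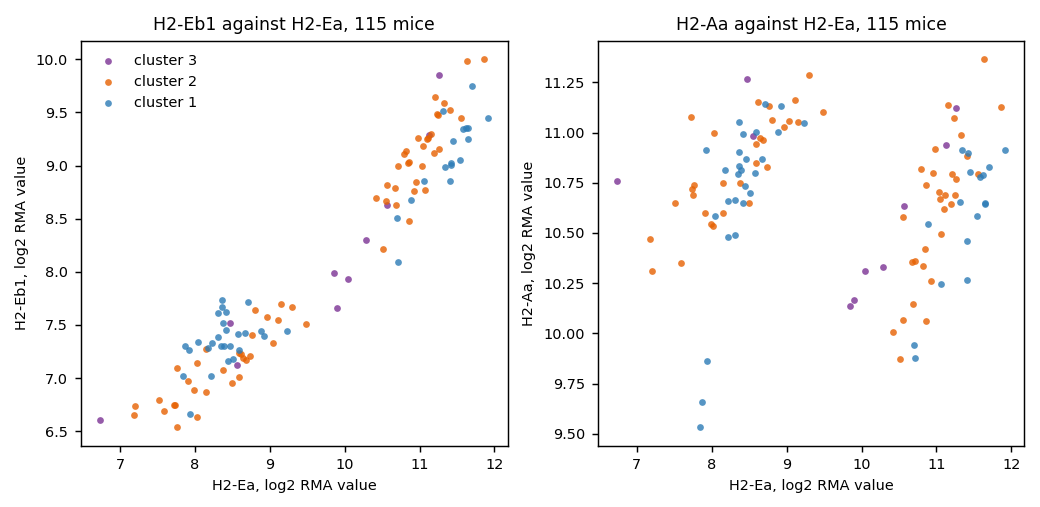
Log2 RMA values of H2-Eb1 (left) and H2-Aa (right) on the vertical axes against H2-Ea on the horizontal axes, 1 point per mouse, coloured by lymph cluster. The H2-Ea values leave a gap from 9.48 to 9.85; H2-Eb1 climbs across it, while H2-Aa covers much the same range on both sides.

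The 7 class II genes without separated levels varied together from mouse to mouse. Correlations were computed with Cd74 as the common partner, on values corrected for cluster and plate, and 6 pairs were tested with 100000 two-sided permutations. Pearson's r with Cd74 was 0.909 for H2-Ab1, 0.871 for H2-Aa and 0.841 for H2-DMa, then 0.788 for Ciita, 0.715 for H2-Ob and 0.667 for H2-Oa. Spearman's rho was 0.884, 0.839 and 0.865 for H2-Ab1, H2-Aa and H2-DMa, and 0.839, 0.746 and 0.672 for Ciita, H2-Ob and H2-Oa. Each of the 6 had a permutation p, raw and adjusted over the pairs, of 1e-05 for r and for rho, the smallest the permutations can give.

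Without the 2 mice farthest from the median of Cd74, r was 0.890 for H2-Ab1, 0.845 for H2-Aa, 0.846 for H2-DMa, 0.846 for Ciita, 0.745 for H2-Ob and 0.706 for H2-Oa. In plate 2 alone r ran from 0.562 (H2-Ob) to 0.923 (H2-Ab1), and in plate 1 alone from 0.684 (H2-Oa) to 0.898 (H2-Ab1). Within clusters the H2-DO chains gave the widest spread of values. H2-Oa had an r with Cd74 of 0.925 in cluster 3 (n = 10), 0.872 in cluster 2 (n = 61) and 0.298 in cluster 1 (n = 44), and in cluster 1 the permutation p was 0.0489 for r and 0.0787 for rho. H2-Ob had 0.954 in cluster 3, 0.851 in cluster 2 and 0.433 in cluster 1. The difference between clusters was not tested. Over all 21 pairs of the 7 genes, r ran from 0.524 (H2-Ob with H2-Aa) to 0.909.

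Within each H2-Ea level the H2-E chains joined this pattern. Between H2-Ea and H2-Eb1, r was 0.881 in the upper level (n = 54, rho 0.870) and 0.795 in the lower level (n = 61, rho 0.753). H2-Ea and H2-Ab1 gave 0.893 in the upper level and 0.602 in the lower level. The lowest values were 0.629 for H2-Ea with H2-Oa in the upper level and 0.484 for H2-Ea with H2-Aa in the lower level. Of these 30 correlations, the largest adjusted permutation p was 0.00013. Without the 2 mice farthest from the median on H2-Ea, the r of H2-Ea with H2-Aa in the lower level was 0.636.

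The fat pad holds several cell types that make class II molecules, so each gene was set against the levels of their markers. A joint linear model in limma, fitted to all 28204 probe sets, held cluster, plate and the mean of 5 marker lists (B cell, dendritic cell, macrophage, luminal epithelium and white adipocyte), none of which contains a class II gene. A slope gives how far a gene moved, on the log2 scale, when 1 list mean was higher by 1 log2 unit and the others were held fixed, and a call is an adjusted p under 0.05 after Benjamini-Hochberg adjustment over all probe sets. In bulk tissue, fewer cells of a type and less RNA per cell cannot be told apart.

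The list means themselves ranged over the mice from 5.62 to 9.15 for 13 measured B cell genes, from 6.13 to 7.39 for 11 dendritic cell genes, from 7.17 to 9.02 for 13 macrophage genes, from 6.43 to 10.24 for 10 luminal genes and from 10.73 to 12.11 for 12 adipocyte genes. The adipocyte markers of the labelled tissue had mean values between 10.22 and 12.51 for each gene. Variance inflation of the 5 means ran from 1.58 to 2.78.

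The B cell slope was called higher for 5 of the 9 class II genes, against 1.1% of all probe sets. It was 0.77 (SE 0.069, adjusted p 2e-16) for H2-Ob and 0.58 (SE 0.068, adjusted p 1.2e-10) for H2-Oa, the H2-DO chains. It was 0.49 (SE 0.058, adjusted p 1.54e-10) for Ciita, 0.24 (SE 0.056) for H2-DMa and 0.23 (SE 0.049) for Cd74. The H2-A chains H2-Aa and H2-Ab1 both had 0.19, with adjusted p of 0.091 and 0.0573, and H2-Ab1 was called, at 0.19 or 0.20, in 4 other settings: without the 2 mice lowest in Cd74 (adjusted p 0.0175), with array weights (0.0314), after repeated quantile normalization (0.0357) and among probe sets with a mean of 5 or more (0.0425). The call for H2-DMa was lost on plate 1 alone (0.21, adjusted p 0.0725). H2-Ea had 0.28 (SE 0.33) and H2-Eb1 0.23 (SE 0.23), neither called. The median over the 9 genes was 0.24, against −0.01 over all probe sets. With the B cell list as the only mean, all 9 genes were called higher, against 15.8% of probe sets, H2-Aa with 0.34 (adjusted p 8.34e-10), H2-Ab1 with 0.42 (adjusted p 1.71e-12), H2-Ea with 0.72 (adjusted p 0.0062) and H2-Eb1 with 0.54 (adjusted p 0.0024) among them. Markers outside the model also had called higher B cell slopes: 7 of 12 T cell genes (median 0.41) and 7 of 7 lymph node stroma and high endothelium genes (median 0.47). Their part in the class II values was not tested. When the T cell mean took the place of the B cell mean, its slope was not called for H2-Ob, Ciita, Cd74 and H2-DMa, and H2-Oa kept the only call, against 1.28% of probe sets called higher.

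Along the dendritic cell list the order changed. That slope was called higher for 6 of the 9 genes, against 12.3% of all probe sets, with 0.97 (SE 0.13, adjusted p 2.1e-09) for H2-Ab1, 0.81 (SE 0.11, adjusted p 1.83e-08) for Cd74, 0.78 (SE 0.13) for H2-DMa, 0.70 (SE 0.14) for H2-Aa, 0.68 (SE 0.13) for Ciita and 0.54 (SE 0.16, adjusted p 0.0103) for H2-Ob. H2-Oa had 0.27 (SE 0.16, adjusted p 0.257). H2-Ea and H2-Eb1 had 1.58 (SE 0.77) and 1.12 (SE 0.52), with adjusted p of 0.157 and 0.137. Without the 2 mice lowest in Cd74, the slope of H2-Ob was 0.43 with an adjusted p of 0.0696. Differences between genes in these slopes were not tested. With the dendritic list as the only mean, all 9 genes were called higher, against 18.4% of probe sets, H2-Oa with 1.2 (adjusted p 5.64e-14), H2-Ea with 1.80 (adjusted p 0.00118) and H2-Eb1 with 1.34 (adjusted p 0.000385) among them. Called higher beside them in the joint model were 12 of 12 T cell genes, with a median of 0.93, and 2 of 7 lymph node stroma genes, while 6 of 6 skeletal muscle genes (median −3.82) and 3 of 5 basal epithelium genes were called lower. None of these lists was in the model, and their part in the class II values was not tested.

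On the macrophage list mean, 0 of the 9 class II genes were called in limma, against 11.4% of all probe sets, and none had an unadjusted p under 0.05, against 24.7%. The slopes of the 7 genes without separated levels ran from −0.16 (Ciita and H2-Ob) to 0.10 (H2-Oa). The luminal list mean had called slopes of 0.12 for H2-Ab1, 0.13 for Cd74 and 0.12 for H2-DMa, with SEs of 0.037, 0.033 and 0.038, against 10.5% of probe sets called higher. That of H2-Ab1 was not called with array weights (0.09, adjusted p 0.0808), while H2-Ob was called on plate 1 alone (0.15, adjusted p 0.0332) and among probe sets with a mean of 5 or more (0.12, adjusted p 0.0478). The white adipocyte list mean had 1 called slope, 0.36 (SE 0.087, adjusted p 0.000567) for Cd74, against 16.3% called higher. Among probe sets with a mean of 5 or more, H2-Aa (0.26, adjusted p 0.0407) and H2-Ab1 (0.24, adjusted p 0.0452) were called too. Markers outside the model moved here as well: 4 of 5 basal epithelium genes had called higher luminal slopes (median 0.30). On the adipocyte mean, 7 of 7 blood endothelium genes were called higher (median 0.79), and 3 of 6 skeletal muscle, 2 of 5 basal epithelium and 2 of 12 T cell genes lower. On the macrophage mean, 9 of 11 interferon response genes were called higher, and 5 of 12 T cell and 3 of 7 blood endothelium genes lower. Their part in the class II values was not tested. The calls for the B cell, dendritic, luminal and adipocyte lists all changed with the other means in the model. With the luminal list as the only one, the same 3 genes had −0.01, −0.02 and 0.00 and no class II gene was called, against 27% of probe sets. With the adipocyte list as the only one, Cd74 had −0.15 and was not called, and 3 genes were called lower, against 20.7% of probe sets: Ciita at −0.44 (adjusted p 0.0132), H2-Ob at −0.70 (adjusted p 0.00103) and H2-Oa at −0.60 (adjusted p 0.000431). With the macrophage list as the only one, the smallest adjusted p was 0.0749 (H2-Ab1, slope 0.26), so no class II gene was called there either, against 20.1% of probe sets.

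**Figure D2:**
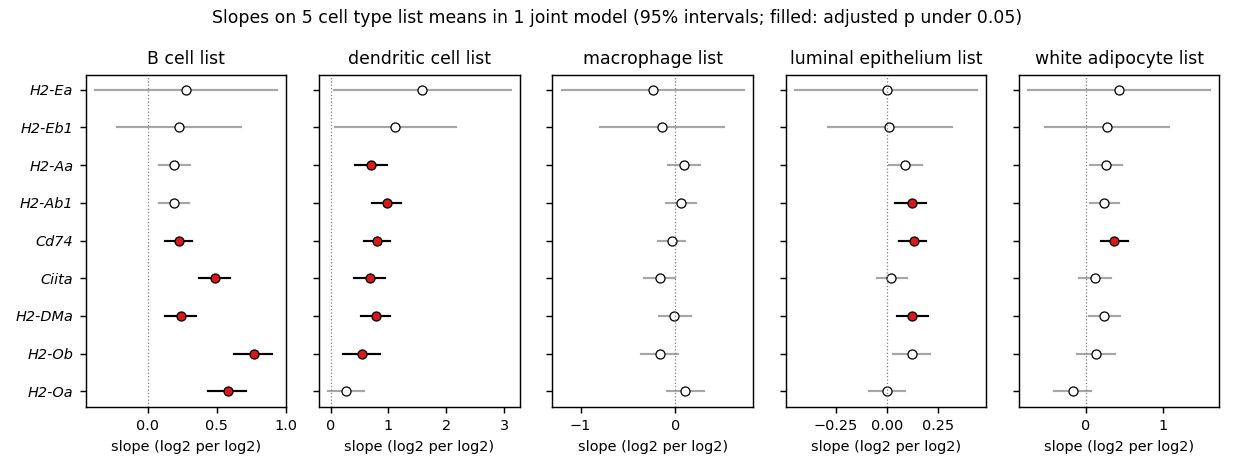
Slope of each class II gene on 5 cell type list means in 1 joint model, in log2 per log2 unit, with 95% intervals over 115 mice; filled points have an adjusted p under 0.05. The B cell slope is 0.77 for H2-Ob and 0.58 for H2-Oa, the dendritic cell slope is 0.97 for H2-Ab1 and 0.81 for Cd74, and all 9 macrophage points are open.

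Cluster and plate alone accounted for 0.279% (H2-Eb1) to 3.23% (H2-Ob) of the variance of the class II genes. With the 5 list means, the share was 56.4% for H2-Aa, the lowest of the 7 genes without separated levels, and 80.7% for H2-Ob, the highest. It was 13.8% for H2-Ea and 15.5% for H2-Eb1. Adding the H2-Ea value brought H2-Eb1 to 93.1%.

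Other genes of the pathway were read from lists. Of 11 class II transcription factor genes, 2 had called higher B cell slopes: Pax5, a B cell identity factor, at 0.95 (SE 0.056) and Irf8, an interferon regulatory factor of myeloid and B cells, at 0.26 (SE 0.054). On the dendritic list 6 were called higher, among them Irf8 at 1.13 (SE 0.12), Irf1 at 0.91 (SE 0.12), Rfx5, the X box factor, at 0.66 (SE 0.11) and Nfya, a subunit of the Y box factor, at 0.54 (SE 0.090). On the macrophage list 1 was called, Spi1, a myeloid factor, at 0.48 (SE 0.073).

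Of 12 loading and processing genes, 5 were called higher on the B cell list, led by H2-Eb2, a class II beta chain gene beside H2-Eb1, at 0.69 (SE 0.060), Cd37, a tetraspanin, at 0.47 (SE 0.062), Cd40, a costimulatory receptor, at 0.34 (SE 0.061) and Ifi30, a thiol reductase of antigen processing, at 0.23 (SE 0.048). On the dendritic list 7 were called higher and 1 lower, with the costimulatory ligand gene Cd86 at 0.91 (SE 0.14). On the macrophage list 6 were called higher, with the lysosomal proteases Lgmn at 0.69 (SE 0.065) and Ctss at 0.51 (SE 0.10). This list thus held macrophage calls where the 9 class II genes had none, a contrast that was not itself tested.

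Of 9 CD4 T cell and interferon gamma genes, 3 were called higher on the dendritic list, Cxcl9 at 1.29 (SE 0.23), Cd4 at 0.92 (SE 0.21) and Cxcl10 at 0.70 (SE 0.16). Cd4, the T cell coreceptor that binds class II molecules, was the only one called on the B cell list, at 0.50 (SE 0.092). Medians of these slopes over all probe sets were −0.01 for the B cell list, 0.02 for the dendritic list and −0.03 for the macrophage list.

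How the other class II genes moved with H2-Ea was tested across all 28203 other probe sets, with H2-Ea as a number in each mouse beside cluster and plate. Of 8 class II genes 5 were called higher, against 1.22% of probe sets called higher and 1.67% called in either direction. H2-Eb1 had a slope of 0.66 log2 per log2 unit of H2-Ea (SE 0.018, adjusted p 7.27e-62), and 0.66 on plate 2 alone and on plate 1 alone. Within clusters its slope was 0.64 (SE 0.1) in cluster 3, 0.73 (SE 0.021) in cluster 2 and 0.57 (SE 0.023) in cluster 1. The difference between clusters in this slope was not tested. H2-Ob followed with 0.22 (SE 0.034, adjusted p 2.55e-06), Ciita with 0.12 (SE 0.030, adjusted p 0.0189), H2-Ab1 with 0.11 (SE 0.024, adjusted p 0.00237) and H2-DMa with 0.10 (SE 0.022, adjusted p 0.00389). H2-Oa had 0.10 (SE 0.031, adjusted p 0.0851), Cd74 0.07 (SE 0.022, adjusted p 0.0551) and H2-Aa −0.01 (SE 0.023, adjusted p 0.888). Ciita was not called on plate 1 alone (0.12, adjusted p 0.0648), and Cd74 was called among probe sets with a mean of 5 or more (0.07, adjusted p 0.0412) and after repeated quantile normalization (0.08, adjusted p 0.0373).

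Cell type markers moved with H2-Ea as well: 4 of 13 B cell genes, 2 of 11 dendritic cell genes and 0 of 13 macrophage genes were called higher, and their medians were 0.12, 0.06 and 0.01. With the 5 list means in the model, 3 class II genes were called, against 0.738% of probe sets. H2-Eb1 had 0.65 (SE 0.019), H2-Ob had 0.11 (SE 0.017, adjusted p 1.88e-07), and H2-Aa was called lower with −0.08 (SE 0.015, adjusted p 4.39e-05). H2-Ab1, Ciita and H2-DMa had 0.04, 0.02 and 0.03 and were no longer called.

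For the same slope on H2-Ea, 2 of 11 transcription factor genes were called higher, Irf8 at 0.13 (SE 0.028) and Spi1 at 0.08 (SE 0.023). Of 12 loading and processing genes 4 were called higher, among them H2-Eb2 at 0.16 (SE 0.034), Cd37 at 0.12 (SE 0.033) and Ifi30 at 0.08 (SE 0.021). None of 9 CD4 T cell and interferon gamma genes was called. The medians were 0.03, 0.07 and 0.02, against 0.00 over all probe sets. Leaving out the 2 mice lowest in Cd74, 1 of the 11 and 2 of the 12 were called, as were 2 of 13 B cell genes and 1 of 11 dendritic cell genes.

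Within the H2-Ea levels, a setting added after the levels were seen, all 8 genes had called positive slopes, from 0.40 (SE 0.054) for H2-Aa to 0.81 (SE 0.084) for H2-Ob, against 18.8% of probe sets called. The slope of H2-Aa was thus 0.40 within levels and −0.01 over all mice.

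Position along chromosome 17 went with the calls. Among the 50 measured genes within 25 places of H2-Ea, 13 (26%) were called, of the next 150 genes out to 100 places 27 (18%), of the other 682 genes on the chromosome 76 (11.1%), and of 17862 genes on other chromosomes 237 (1.33%). The 13 include H2-Eb1, H2-Ob, H2-Ab1, H2-DMa and H2-Eb2, which are class II genes themselves. The others of the 13 are Rps18, Psmb9, Tap1, BC051142, Prrt1, C4a, Stk19 and C2. The step from 26% to 18% counts the class II genes and no share without them was computed. It is therefore not shown for the other genes near H2-Ea. Without the 2 mice lowest in Cd74, 282 probe sets were called in all in place of 472, and on plate 1 alone 175.

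H2-Eb1 lies 2 places and H2-Aa 3 places from H2-Ea, so the widest and the flattest slope of the class II genes stand side by side. H2-Eb2, between H2-Ea and H2-Eb1, had 0.16 (SE 0.034). Of 16 other genes of the region on a list, 3 were called higher: Daxx, a chromatin cofactor, at 0.10 (SE 0.014), Tap1, a peptide transporter of class I loading, at 0.10 (SE 0.024), and Psmb9, an immunoproteasome subunit, at 0.07 (SE 0.018). Calls ran both ways: C2, a complement component gene 22 places from H2-Ea, had −0.21 (SE 0.027) and H2-M9, 96 places away, −0.23 (SE 0.031). Those 2 genes were chosen after their values were seen.

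**Figure D3:**
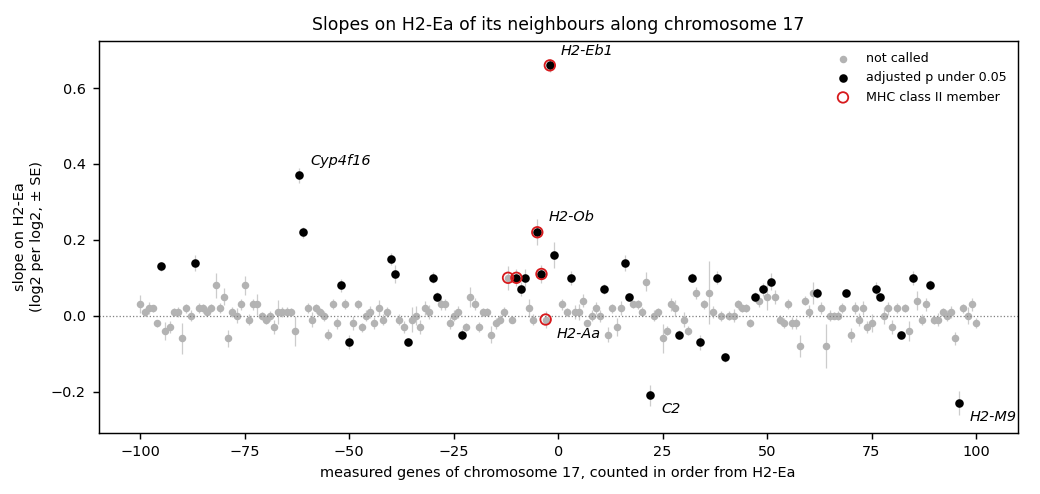
Slope on H2-Ea (log2 per log2 unit, ± SE, 115 mice) of the measured genes within 100 places of H2-Ea on chromosome 17, in gene order; black points have an adjusted p under 0.05 and red circles mark class II genes. H2-Eb1 stands alone at 0.66, H2-Aa beside it lies at −0.01, and called genes of both signs lie far from H2-Ea.

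Likeness to each class II gene was measured by Pearson's r over the 115 mice on values corrected for cluster and plate, and the 3 most alike named genes were taken for each. For H2-Ea and H2-Eb1 the first were Cyp4f16 and Cyp4f37, cytochrome P450 genes 62 and 61 places from H2-Ea, with slopes on H2-Ea of 0.37 (SE 0.020) and 0.22 (SE 0.014). Since H2-Ea has 2 levels, only the values within levels are given. Cyp4f16 had an r with H2-Ea of 0.416 in the upper and 0.222 in the lower level, and Cyp4f37 had 0.086 in the upper and 0.359 in the lower level. With H2-Eb1, Cyp4f16 had 0.183 in the upper and 0.324 in the lower H2-Ea level. Cyp4f37 had −0.021 and 0.407 with H2-Eb1, so its rank over all mice did not hold as a likeness within the upper level. The third was Ccdc167 for H2-Ea, with 0.294 in the upper and 0.167 in the lower level, and H2-M3, a class I-like gene, for H2-Eb1, with 0.718 in the upper and 0.578 in the lower level. All of these lie on chromosome 17.

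For the other genes the closest matches lay mostly elsewhere. H2-Aa was most like Unc93b1 (r 0.744), Coro1a (0.740) and Nckap1l (0.734). H2-Ab1 was most like Ifi30 (0.830), Map4k1 (0.828) and Hcls1 (0.825), and Cd74 like Map4k1 (0.813), Tgfb1 (0.812) and Sash3 (0.812). H2-DMa was nearest to Napsa (0.823), Fermt3 (0.810) and Tlr9 (0.810).

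Ciita came closest to Ikzf3 (0.857), Cd22 (0.850) and Siglecg (0.842). The H2-DO chain H2-Ob was most like Ikzf3 (0.904), H2-Eb2 (0.887) and Slamf6 (0.864), and H2-Oa like Gpr18 (0.818), Cxcr5 (0.810) and Cd22 (0.809). Cd22 and Cxcr5 are also on the B cell marker list. These r values describe the mice and carry no p.

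The values of the class II genes overlapped between the lymph clusters. H2-Ob had values of 7.21 to 9.16 (median 7.98) in cluster 3, 6.70 to 9.36 (median 8.31) in cluster 2 and 7.20 to 9.87 (median 7.95) in cluster 1. Cd74 ran from 10.18 to 11.35 (median 10.72) in cluster 3, from 9.93 to 11.49 (median 10.78) in cluster 2 and from 9.497 to 11.18 (median 10.76) in cluster 1. H2-Ea ran from 6.73 to 11.27 (median 9.98) in cluster 3, from 7.18 to 11.86 (median 10.42) in cluster 2 and from 7.84 to 11.92 (median 8.63) in cluster 1. For every class II gene the ranges of the 3 clusters overlapped.

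None of the 9 genes was called between any pair of clusters in limma, against 0% of all probe sets. At an unadjusted p under 0.05, 4 probe sets passed for cluster 2 against cluster 1 (0.0142%), 1 for cluster 3 against cluster 1 (0.00355%) and 1 for cluster 3 against cluster 2 (0.00355%), none of them a class II gene. These shares lie far below the 5% that such a threshold gives where nothing differs and mice vary independently, and why was not tested. The missing calls are thus shared by the whole array, say nothing particular about class II genes and do not show that the clusters are alike. The difference of cluster 2 minus cluster 1 was 0.23 for H2-Ob (95% interval −0.01 to 0.48, adjusted p 1), 0.16 for H2-Oa (−0.04 to 0.35), 0.08 for Cd74 (−0.06 to 0.21) and 0.17 for H2-Ea (−0.40 to 0.73). All 9 differences were above 0 in this model of both plates, with a median of 0.11 against 0.00 over all probe sets. The genes varied together, so their signs are not 9 separate observations, and the sign was not shared on plate 1 alone. The B cell and T cell lists had medians of 0.22 and 0.23 in the same contrast, with 0 of 13 and 0 of 12 genes called, and their part in the class II values was not tested.

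On plate 2 alone, cluster 2 minus cluster 1 was 0.66 (SE 0.18) for H2-Ob and 0.43 (SE 0.16) for Cd74, against 0.12 (SE 0.14) and −0.01 (SE 0.073) on plate 1 alone. Plate 1 alone (n = 84) also gave −0.03 for H2-Eb1, −0.02 for H2-Aa and −0.01 for H2-Ab1. The other genes ran there from 0.01 (H2-Ea) to 0.12. On plate 2 alone (n = 21) all 9 genes lay above 0, from 0.24 (H2-DMa) to 0.78 (H2-Ea). The difference between plates in this contrast was not tested. Cluster 3 minus cluster 1 ran from 0.00 (H2-Aa) to 0.16 (H2-Ea, 95% interval −0.84 to 1.17). Cluster 3 minus cluster 2 ran from −0.15 (H2-Ob and H2-Oa) to 0.00 (H2-Ea). Plate 2 against plate 1 called 0 of the 9 genes in limma, against 0.0106% of probe sets, and 762 probe sets (2.7%, also below 5%), none of them a class II gene, had an unadjusted p under 0.05.

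**Figure D4:**
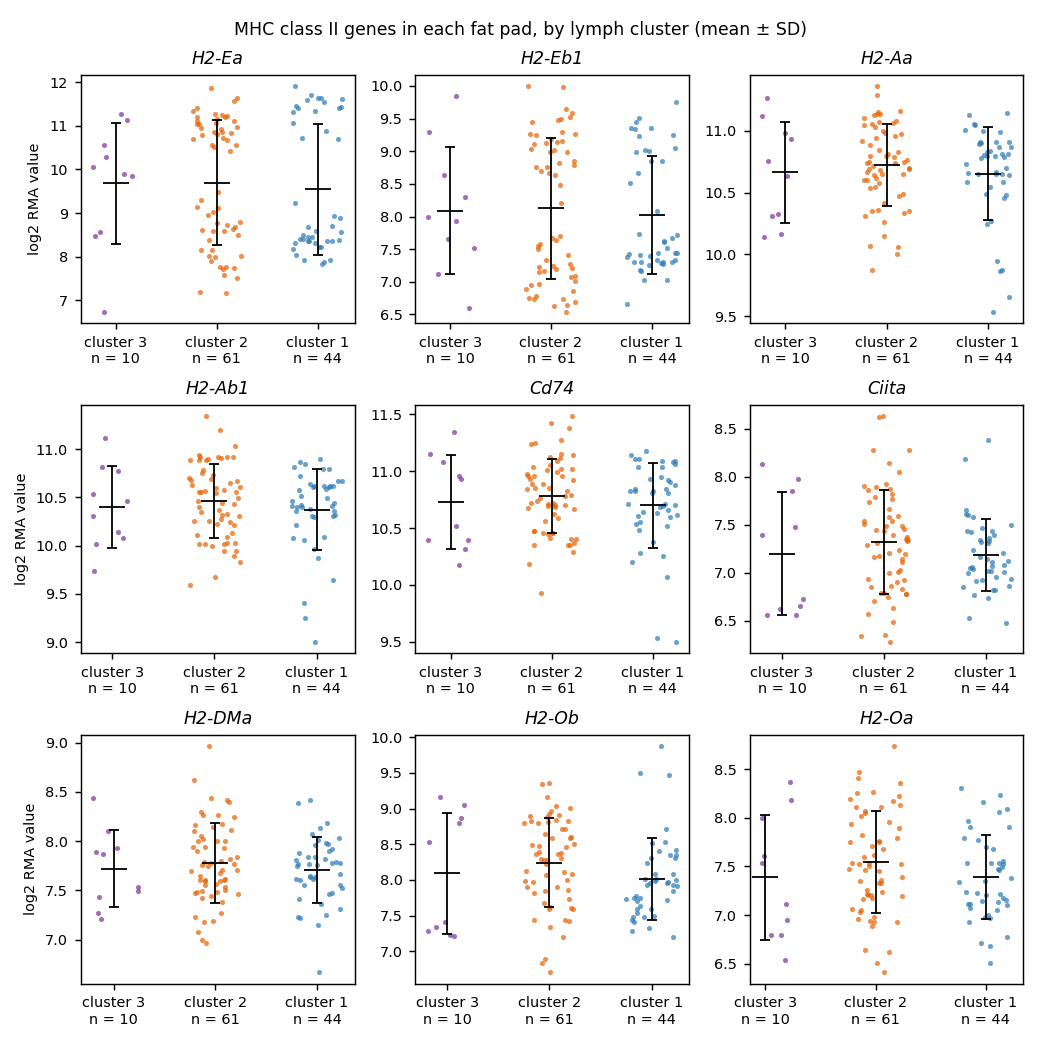
Log2 RMA value (vertical axes) of 9 class II genes in each fat pad, by lymph cluster 3 (n = 10), 2 (n = 61) and 1 (n = 44); bars are mean ± SD. The clusters overlap for every gene, and H2-Ea and H2-Eb1 show 2 bands of points.

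The series asks about Hipk2, so the class II genes were set against its value in each mouse, with cluster and plate in the model. Hipk2 ran from 9.83 to 11.49 over the mice. Both H2-DO chains were called lower with higher Hipk2 and the other 7 genes were not called, against 17.2% of all probe sets called lower and 35.8% called in either direction. The slope was −0.47 log2 per log2 unit (SE 0.16, adjusted p 0.0149) for H2-Ob and −0.42 (SE 0.13, adjusted p 0.00582) for H2-Oa. Ciita had −0.27 (SE 0.13, adjusted p 0.0907), H2-Ab1 −0.15 (SE 0.11), Cd74 −0.01 (SE 0.095) and H2-Ea 0.35 (SE 0.39). The median of the 9 genes was −0.10, against −0.01 over all probe sets.

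Marker lists of many cell types moved with Hipk2. Called lower were 9 of 13 B cell genes (median −0.46), 12 of 12 T cell genes (median −0.63), 4 of 7 lymph node stroma genes (median −0.41) and 9 of 10 luminal epithelium genes (median −0.80). Called higher were 12 of 12 white adipocyte genes (median 0.67) and 6 of 7 blood endothelium genes (median 0.69). Of 11 dendritic cell genes 5 were called lower and 1 higher, and of 13 macrophage genes 1 lower and 2 higher. Apart from the B cell and adipocyte means, added next, their part in the class II values was not tested. With the B cell list mean added, H2-Ob had −0.03 (SE 0.084) and H2-Oa −0.10 (SE 0.081), neither called, and Cd74 was called higher with 0.20 (SE 0.071, adjusted p 0.0235), against 17.2% of probe sets called higher in that model. When the adipocyte mean took the place of the B cell mean, H2-Ob had 0.12 (SE 0.30) and H2-Oa 0.04 (SE 0.24), and none of the 9 genes was called, against 8.06% of probe sets. With no list mean in the model, the slopes on plate 2 alone were −0.07 (SE 0.21) for H2-Ob and 0.06 (SE 0.24) for H2-Oa. On plate 1 alone they were −0.58 (SE 0.20) and −0.60 (SE 0.16). Within clusters, H2-Ob had −1.55 (SE 0.83) in cluster 3, −0.64 (SE 0.2) in cluster 2 and 0.04 (SE 0.26) in cluster 1. H2-Oa had −0.82 (SE 0.69), −0.64 (SE 0.17) and −0.01 (SE 0.2) in the same order. The difference between clusters 2 and 1 was called for neither gene (adjusted p 0.251 and 0.162 in limma). Without the 2 mice lowest in Cd74, H2-Aa and H2-Ab1 were called lower too, with −0.22 (adjusted p 0.0472) and −0.28 (adjusted p 0.0153). With array weights, H2-Ab1 at −0.27 (adjusted p 0.0271) and Ciita at −0.34 (adjusted p 0.032) were called lower beside the H2-DO chains.

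Among the pathway lists, 6 of 11 transcription factor genes were called lower and 1 higher with Hipk2, with the cyclic AMP responsive factor Creb1 at −0.34 (SE 0.051), the Y box factor subunit Nfyb at −0.46 (SE 0.095), Pax5 at −0.58 (SE 0.17) and Rfxap, a subunit of the X box factor, at 0.19 (SE 0.049). Of 12 loading and processing genes 6 were called lower and 2 higher, with the protease genes Ctss at −0.44 (SE 0.11) and Ctsl at 0.65 (SE 0.091). The medians were −0.20 and −0.23. With the 2 mice lowest in Cd74 left out, 9 of the 12 loading and processing genes were called lower. Of 9 CD4 T cell and interferon gamma genes 2 were called higher and 2 lower, with the kinase gene Jak2 at −0.39 (SE 0.059) and Cd4 at −0.56 (SE 0.17), and of 16 region genes 4 were called higher and 4 lower.

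The slope on Hipk2 was called different between clusters 2 and 1 for 2 class II genes, and neither call held without the 2 mice lowest in Cd74, both of cluster 1. The slope in cluster 2 minus that in cluster 1 was −0.82 (SE 0.21, adjusted p 0.00977) for H2-Ab1 and −0.69 (SE 0.19, adjusted p 0.0141) for Cd74, tested as an interaction in limma on the mice of these 2 clusters, against 4.17% of probe sets called lower and 4.62% called in either direction. Within cluster 2 alone H2-Ab1 had a slope of −0.42 (SE 0.13) and Cd74 −0.22 (SE 0.11), against 0.40 (SE 0.17) and 0.47 (SE 0.15) within cluster 1 alone. Without those 2 mice the slope within cluster 1 (n = 42) was 0.13 (SE 0.15) for H2-Ab1 and 0.21 (SE 0.13) for Cd74, and the difference between clusters was −0.51 (SE 0.21, adjusted p 0.231) for H2-Ab1 and −0.41 (SE 0.18, adjusted p 0.309) for Cd74. Both calls were also lost on plate 1 alone, with −0.60 (adjusted p 0.31) for H2-Ab1 and −0.57 (adjusted p 0.258) for Cd74, after repeated quantile normalization (adjusted p 0.0751 and 0.0818) and with array weights (adjusted p 0.108 and 0.117). The slope differences of the other 7 genes, from −0.56 (H2-Aa, adjusted p 0.0742) to −1.58 (H2-Ea, SE 0.82, adjusted p 0.304), were not called, except that H2-DMa was called among probe sets with a mean of 5 or more (−0.62, adjusted p 0.0457). The median of the 9 genes was −0.69, against −0.02 over all probe sets.

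In the same test 5 of 11 dendritic cell genes and 8 of 12 T cell genes were called lower, with medians of −0.71 and −1.06, and 0 of 13 B cell genes, with a median of −0.46. Their part in the class II values was not tested. Of the pathway lists 4 of 11 transcription factor genes were called lower, Irf1 at −0.86 (SE 0.16) and Irf8 at −1.09 (SE 0.24) first, and of 16 region genes 5, among them Psmb9 at −0.69 (SE 0.16) and Tap1 at −0.85 (SE 0.20). Of 12 loading and processing genes 4 were called lower, with Ctss at −1.0 (SE 0.22). After the 2 mice lowest in Cd74 were left out, 2 of 11 dendritic cell, 2 of 12 T cell and 2 of 11 transcription factor genes were called lower, and 0 of the 16 region and 0 of the 12 loading and processing genes, with 511 probe sets called in all in place of 1302.

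**Figure D5:**
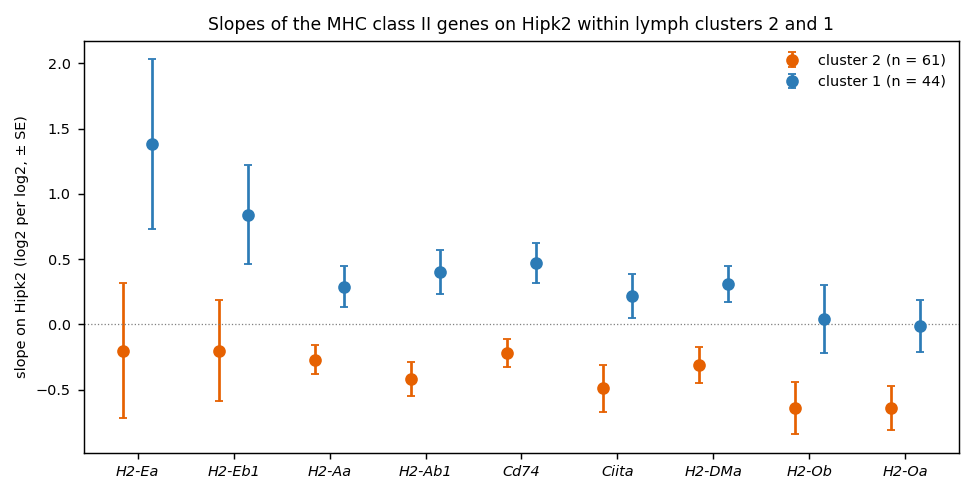
Slope on Hipk2 (log2 per log2 unit, ± SE) of 9 class II genes within lymph cluster 2 (orange, n = 61) and lymph cluster 1 (blue, n = 44), each corrected for plate. Cluster 2 lies below cluster 1 for every gene, and the difference was called for H2-Ab1 (−0.82) and Cd74 (−0.69) alone. Neither call held without the 2 mice lowest in Cd74 (−0.51 and −0.41), on plate 1 alone, after repeated quantile normalization or with array weights.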

How the data were processed

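The deposited values are log2 expression summaries. RMA (robust multi-array average) and the oligo package are named in the submitters' processing notes, with versions not given in the sources used here. In all, the table held 28204 probe sets for 115 arrays, of which 21141 had 1 gene symbol, updated by gene identifier through RefSeq (GRCm38.p6), and 1881 had several. That table gave names and gene order only. The class II genes, gene lists and tests were chosen with earlier results of these data known. Among several probe sets of a gene, that of highest mean stood for it, and each measured class II gene has 1. Genes named besides these are Hipk2, the 3 most alike to each, and up to 4 per list with the smallest p. C2, H2-M9 and the 5 genes with the smallest p off chromosome 17 were named after their values were seen.

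Tests used limma 3.58.1 in R 4.3.3, adjusted by Benjamini-Hochberg over every probe set, and levels used mclust 6.1.1. Correlations were computed in Python 3.11.15 and figures drawn with matplotlib 3.10.9. Every model held lymph cluster and array plate, and each was tested on simulated data. Array medians lay between 6.16 and 6.45, correlations between arrays from 0.928 to 0.992 (none a copy), and their number limits the precision. Alternatives used no plate term, single plates, probe sets with a mean of 5 or more, a repeated quantile normalization, array weights, trend and robust moderation, other list means, or 2 mice fewer.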

Additional observations from a re-analysis of the deposited data

Results flagged for a closer look

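The slope on Hipk2 was called different between lymph clusters 2 and 1 for 2 of 9 class II genes, against 4.62% of all probe sets. The calls came from a test of the difference itself, and neither held in the settings named below. In the same test 8 of 12 T cell, 5 of 11 dendritic cell and 0 of 13 B cell genes were called lower, and their part was not tested. For H2-Ab1 the slope in cluster 2 minus that in cluster 1 was −0.82 (SE 0.21, adjusted p 0.00977 in limma), with −0.42 in cluster 2 and 0.40 in cluster 1. For Cd74 it was −0.69 (SE 0.19, adjusted p 0.0141 in limma), with −0.22 in cluster 2 and 0.47 in cluster 1. The adjusted p was above 0.05 on plate 1 alone, after repeated quantile normalization and with array weights, and both differences were negative in each. Without the 2 mice lowest in Cd74, both of cluster 1, the difference was −0.51 (adjusted p 0.231) for H2-Ab1 and −0.41 (adjusted p 0.309) for Cd74, with cluster 1 slopes of 0.13 and 0.21.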

How the results depend on the processing

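Of 839 alternative values for single class II genes, 779 kept their side of the threshold (39 of them, called in neither setting, changed sign). Among the 779 are 63, 54 and 54 values from the cluster contrasts, 36 from the plate contrast and 63 from the macrophage slope. No class II gene was called in any setting of those fits, so the total says little about the called results. Of the 839, 26 passed the threshold anew, 24 no longer passed it and 10 changed sign where called in either setting. Of those 10, the slope on Hipk2 was 0.20 for Cd74 with the B cell mean added, and 0.12 for H2-Ob and 0.04 for H2-Oa with the adipocyte mean added. With the luminal list as the only mean, the slope on that mean was −0.01 for H2-Ab1, −0.02 for Cd74 and 0.00 for H2-DMa. With the adipocyte list as the only mean, the slope on that mean was −0.15 for Cd74, −0.44 for Ciita (adjusted p 0.0132) and −0.70 for H2-Ob (adjusted p 0.00103). Within H2-Ea levels H2-Aa had a slope on H2-Ea of 0.40. In the main fits the slopes of Cd74 on Hipk2 and of H2-Aa on H2-Ea were both −0.01. A change of sign can thus start or end near 0. The cause of these changes was not tested. For the slope differences on Hipk2, the adjusted p after repeated quantile normalization was 0.0751 for H2-Ab1 and 0.0818 for Cd74, with array weights 0.108 and 0.117, and without the 2 mice lowest in Cd74 0.231 and 0.309. With the T cell mean in place of the B cell mean, its slope was 0.40 for H2-Ob (adjusted p 0.0645), 0.19 for Ciita (0.353), 0.15 for Cd74 (0.314) and 0.08 for H2-DMa (0.719).

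Counts of called probe sets moved by over 1.5 times as follows. Plate 2 against plate 1 gave 27 after quantile normalization and 1 with array weights, against 3. The slope on Hipk2 gave 2272 with the adipocyte mean, against 10083, and its difference between clusters gave 156 on plate 1 alone, 532 after quantile normalization, 681 with array weights and 511 without the 2 mice lowest in Cd74, against 1302. The B cell slope gave 648 with T cells in its place and 8730 as the only mean, against 337. The dendritic slope gave 8680 and the macrophage slope 5680 as the only mean, against 4669 and 3222. The slope on H2-Ea gave 175 on plate 1 alone, 150 with the B cell mean, 208 with 5 means, 5295 within levels and 282 without the 2 mice lowest in Cd74, against 472. Separated levels were found for 41 probe sets with unequal variances, against 87.

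The settings within H2-Ea levels and without the 2 mice were chosen after seeing the data. Another probe set per gene could not be tried, since each has 1. No paired analysis was possible because replicate numbers were given in accession order and pair no mice.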

Other observations

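On chromosomes other than 17, the 5 genes with the smallest p for the slope on H2-Ea, chosen after their values were seen, were as follows in limma. Rab6b, a small GTPase gene on chromosome 9, had 0.13 (SE 0.021, adjusted p 4.49e-06), and Lrrk2, a kinase gene on chromosome 15, had 0.09 (SE 0.019, adjusted p 0.000678). Filip1l on chromosome 16 had 0.07 (SE 0.015, adjusted p 0.000968), Pdzd8 on chromosome 19 had 0.06 (SE 0.011, adjusted p 0.00117), and Il12rb2, an interleukin receptor chain gene on chromosome 6, had 0.08 (SE 0.017, adjusted p 0.0014).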
